A study of Mus musculus with 7 samples.

Results

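DNA replication and S phase were followed through 42 genes from the 23282 gene entries that each table of the series holds. The genes were chosen by symbol and known role, though with earlier results of these data known. They are genes of origin licensing, the replicative helicase, polymerases, nucleotide synthesis and the supply of histones. All 42 were present once in every table and all 42 were tested. The libraries were QuantSeq 3′ mRNA libraries of mouse uterine tissue, 2 from saline-treated uterus, 2 from CXCL12-treated uterus at Day 3 and 3 from CXCL12-treated uterus at Day 8. The females were 6-week-old C57BL/6 mice; per the study's methods, human recombinant CXCL12, a chemokine, was infused in saline into the cavity of one uterine horn and saline alone into the other, after an abdominal incision in both cases. No label states the day of the saline libraries, the stage of the oestrous cycle or the animal behind a library, so p-values measure only the spread between these libraries, which may be technical. The tissue held several cell types, and in such bulk samples fewer dividing cells and less RNA per dividing cell cannot be told apart.

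A cell copies its genome in S phase. Origins are first licensed by the origin recognition complex, Cdc6 and Cdt1, which load the MCM helicase; Mcm10, Cdc45 and the GINS complex then start the helicase, polymerases copy the strands on the sliding clamp Pcna, and nucleotide and histone synthesis keep pace. Many of these genes are transcribed together at the border of G1 and S under E2F factors. In the mouse uterus oestrogen drives division of the epithelium, and progesterone shifts division to the stroma, so replication genes there change with the cycle and in pregnancy.

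The members differed more within Day 8 than between the groups. Their summed CPM (counts scaled to the total of their library, for Day 3 replicate 1 an estimated one) was 1242 and 2191 in the saline libraries, 1478 and 1353 at Day 3, and 2111, 715 and 674 at Day 8. On log2(normalized count + 1), where counts are scaled to the mean library total and quantile-normalized over the 7 libraries, the median member stood at 7.33 and 8.25 in saline, 8.06 and 7.96 at Day 3, and 8.72, 7.07 and 6.95 at Day 8, while the median of all genes was 7.32 or 7.33 in every library. Day 8 replicate 1 thus held the highest median of the 7 libraries and Day 8 replicates 2 and 3 the lowest 2.

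Before any comparison between groups, 2 facts on the libraries stand beside every value. Day 8 replicate 1 was placed by its label, which says Day 8, although its table is named as a Day 3 one. The comparisons of Day 8, and the named members in them, are given with and without it. The correlation of all genes between Day 8 replicate 1 and the other Day 8 libraries was 0.892 and 0.894 (Pearson's r across 14800 genes, which are not independent replicates), against 0.933 between those others, 0.975 between the Day 3 libraries and 0.902 between the saline libraries. Totals of the 6 count tables were 6908790 to 12308982, so 3 counts correspond to a CPM of 0.244 to 0.434. For Day 3 replicate 1 the deposited values were already normalized and on a log2 scale.

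**Figure D1:**
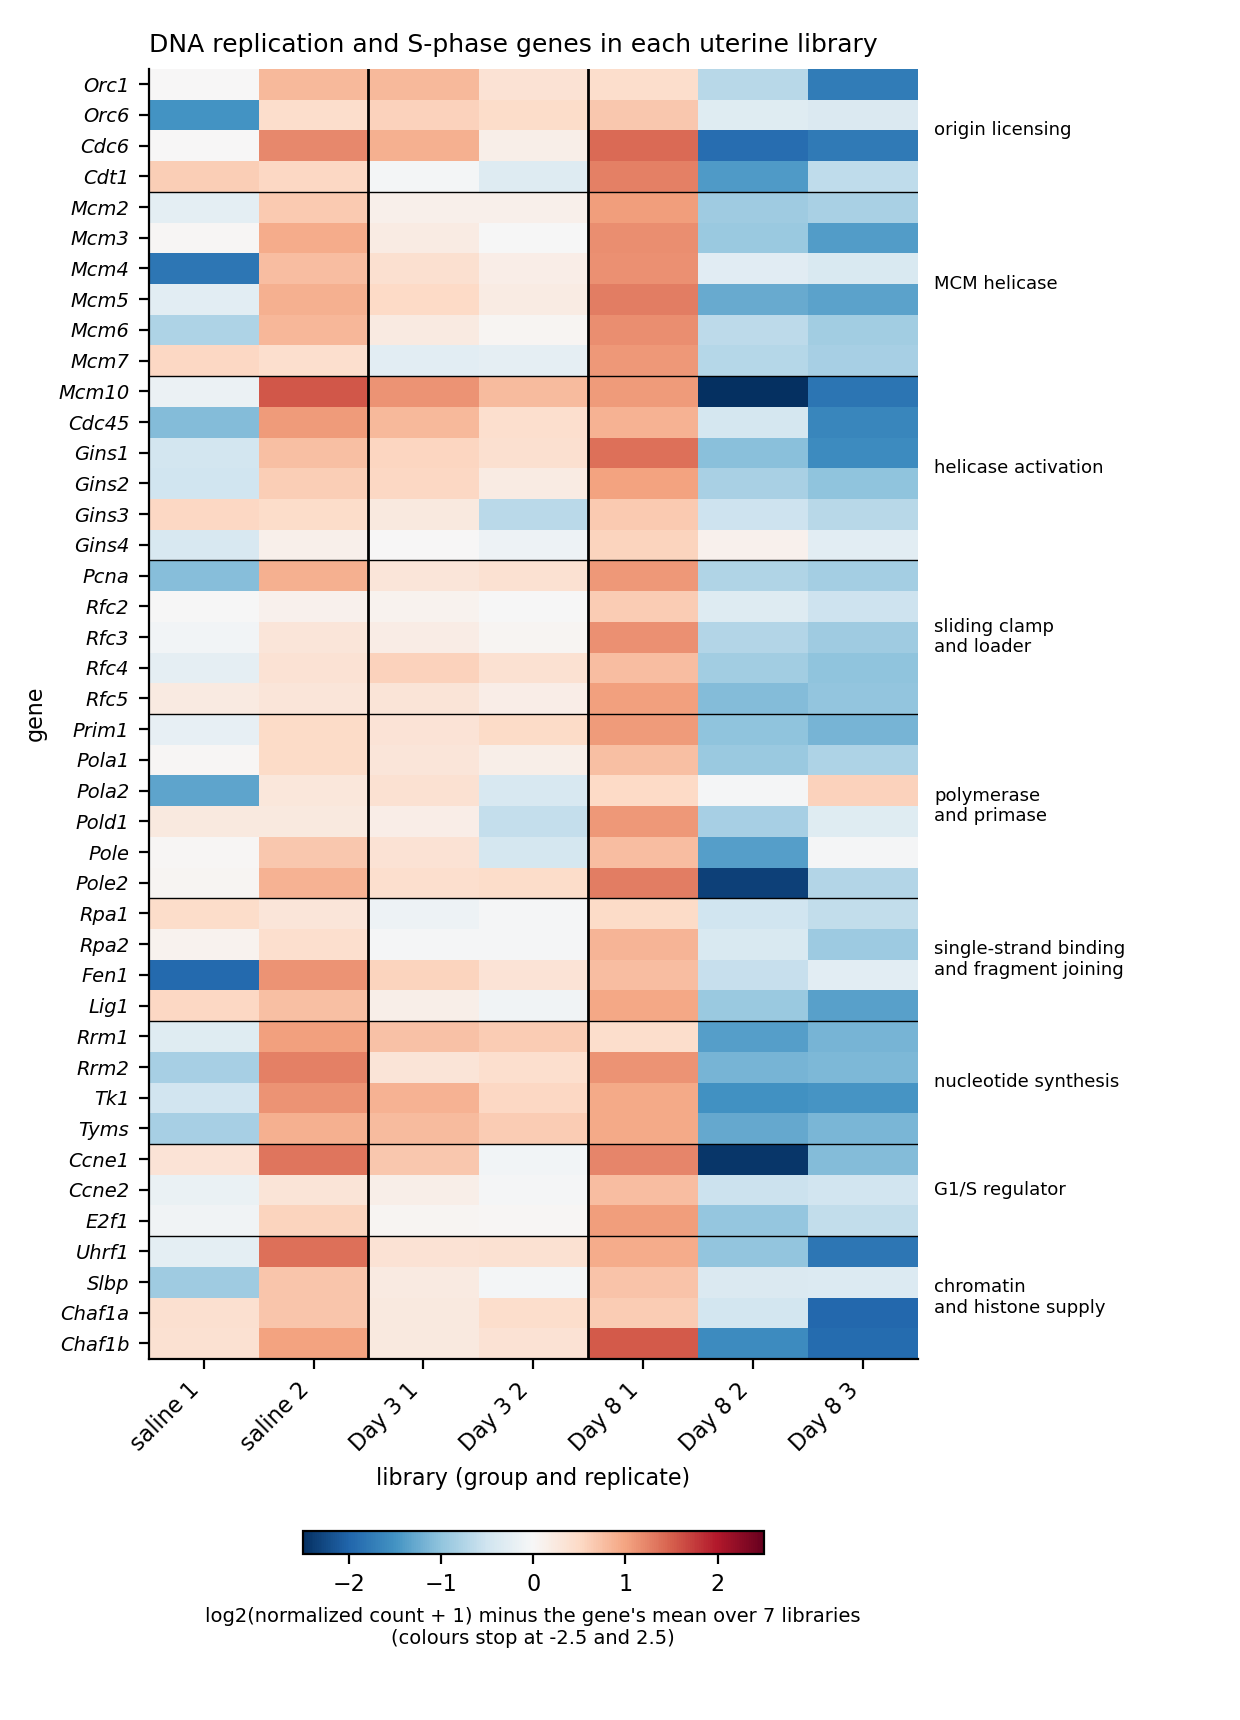
Level of the 42 replication and S-phase genes (rows, grouped by role) in the 7 libraries (columns), as log2(normalized count + 1) minus the gene's mean over the libraries; red is above the mean and blue below. Day 8 replicate 1 was the highest library for 31 genes, and Day 8 replicates 2 and 3 were both among the lowest 2 for 30.

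The split within Day 8 ran through nearly every gene. The highest of the 7 libraries was Day 8 replicate 1 for 31 of 42 members (73.8%), against 16.6% of all tested genes, and saline replicate 2 was the highest for 9 more; Orc1 and Pola2, the remaining pair, were highest in Day 3 replicate 1 and Day 8 replicate 3. Day 8 replicates 2 and 3 were the 2 lowest libraries for 30 of 42 members, against 12.7% of all tested genes. For 40 members Day 8 replicate 1 exceeded the mean of the other Day 8 libraries by more than 2-fold; the exceptions were Gins4 at 0.63 and Pola2 at 0.23 on the log2 scale, and the median over all 42 was 1.90. The summed normalized counts of the members were 3.26-fold and 3.43-fold higher in Day 8 replicate 1 than in replicates 2 and 3. Between replicates 2 and 3 the median difference was -0.07, and over all tested genes the medians of the within-group differences lay between -0.04 and 0.03. The saline pair also differed: 37 of 42 members were higher in replicate 2, 19 of them by more than 2-fold, with a median difference of 0.85 and a widest difference of 3.06, in Fen1. The Day 3 pair differed by a median of -0.16.

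Origin licensing was represented by Orc1, Orc6, Cdc6 and Cdt1. Coordinates of genes are those of GENCODE on GRCm38, whole gene with introns, and the reads of a 3′ library come from the end of the last exon. Orc1 (chr4:108579423-108614833, plus strand), the largest subunit of the origin recognition complex, had normalized counts of 22.7 and 39.8 in the saline libraries, 40.0 and 29.2 at Day 3, and 30.9, 13.5 and 5.9 at Day 8. The Day 8 values of Orc1 overlapped those of both other groups through replicate 1, and its log2 fold change was -1.01 ± 0.78 (SE) against saline (edgeR adjusted p 0.96) and -1.62 ± 0.79 without replicate 1 (adjusted p 0.60). In the last 500 bases of its transcripts 14.7% of 50-base words are shared with the overlapping gene Gm12743, so its level is uncertain. This share is above 10% for 10 members, among them Gins2 at 37%, Ccne2 at 22.5%, Pcna at 21%, Pole2 at 17.1% and Rfc4 at 10.6%, which are uncertain alike. Cdc6 (chr11:98907801-98923940, plus strand), which helps load the helicase, had 80.3 and 183 in the saline libraries, 147 and 87.7 at Day 3, and 212, 20.2 and 22.4 at Day 8. Among the 7 libraries Day 8 replicate 1 was the highest for Cdc6 and the other Day 8 libraries were the lowest 2, a range of 3.33 (log2) inside 1 group. Against saline the difference was -0.66 ± 1.00, and without Day 8 replicate 1 it was -2.55 ± 0.55 (edgeR adjusted p 0.33). Cdt1 and Orc6 differed by -0.40 ± 0.71 and 0.31 ± 0.60, and by -1.52 ± 0.37 and -0.10 ± 0.62 without it.

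The genes of the MCM2-7 helicase, which unwinds the template, had 1 trait in common: all 6 were highest in Day 8 replicate 1. Elsewhere they were less alike, as Day 3 differed from saline by -0.70 in Mcm7 and by 0.79 in Mcm4. Mcm3 (chr1:20802968-20820312, minus strand) had normalized counts of 512 and 945 in the saline libraries, 576 and 498 at Day 3, and 1117, 261 and 190.2 at Day 8. Its Day 8 libraries lay on both sides of the other groups, and the difference from saline was -0.45 ± 0.75 (edgeR adjusted p 0.96), or -1.67 ± 0.40 without replicate 1 (adjusted p 0.36). Mcm5 (chr8:75109569-75128439, plus strand) had 261 and 583 in the saline libraries, 445 and 360.3 at Day 3, and 762, 130.2 and 124 at Day 8. Here too replicate 1 stood above and replicates 2 and 3 below every other library. The difference was -0.31 ± 0.82 and became -1.69 ± 0.45 without Day 8 replicate 1. Over the 6 genes the Day 8 against saline differences ran from -0.45 to 0.33. Without Day 8 replicate 1 Mcm2, Mcm3, Mcm5 and Mcm7 were at least 2-fold lower with an unadjusted P under 0.05, as were 3.25% of all genes. Mcm4 (-0.36 ± 0.77) and Mcm6 (-0.99 ± 0.54) were not. The edgeR adjusted p of those that passed ran from 0.33 in Mcm7 to 0.51 in Mcm2. Mcm4 in saline replicate 1, at 107, was its lowest value of all, against 647 in saline replicate 2. Of the words at the 3′ end of Mcm7, 30.9% are shared with other genes, so its level is uncertain too.

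Among the 6 genes that start the helicase, Mcm10 (chr2:4989714-5012791, minus strand), a factor needed for origin firing, varied most and had 47.0 and 154 in the saline libraries, 115 and 91.7 at Day 3, and 111, 8.0 and 14.1 at Day 8. Day 8 replicate 1 fell within the range of the Day 3 and saline libraries and the other Day 8 libraries fell far below it, a range of 3.64. The difference was -1.26 ± 1.05 against saline (edgeR adjusted p 0.96) and -2.07 ± 1.01 against Day 3 (limma adjusted p 0.71), the lowest value of any member in either comparison. Without Day 8 replicate 1 these were -3.19 ± 0.72 (edgeR adjusted p 0.34) and -3.14 ± 0.61 (limma adjusted p 0.076). Cdc45, Gins1, Gins2 and Gins3 differed from saline by -0.53 to -0.10, and by -1.53 to -1.04 without it. Gins4 (229 and 332 in saline, 303 and 280.0 at Day 3, 446, 327 and 252 at Day 8) was 1 of the 5 members with a positive difference, 0.27 ± 0.35 (0.04 ± 0.33 without Day 8 replicate 1).

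The sliding clamp Pcna and its loader, the RFC complex, showed the split in its plainest form. Rfc5 (chr5:117378103-117389047, minus strand) had 219.9 and 232 in the saline libraries, 235 and 212 at Day 3, and 383, 88.0 and 94.0 at Day 8. Its saline and Day 3 libraries were close together, Day 8 replicate 1 was above all of them and Day 8 replicates 2 and 3 were below all of them. The difference from saline was -0.28 ± 0.64 (edgeR adjusted p 0.97), and 23.7% of the words at its 3′ end are shared with other genes, Wsb2 among them. Pcna had 354 and 1376 in the saline libraries, 922 and 976 at Day 3, and 1588, 437 and 415 at Day 8. It differed by -0.06 ± 0.76 (-1.0 ± 0.62 without Day 8 replicate 1), and its saline libraries were as far apart as its Day 8 libraries. The 5 genes differed from saline by -0.28 to 0.03. Rfc5 alone passed fold 2 with an unadjusted P under 0.05 once Day 8 replicate 1 was left out (-1.27 ± 0.30, edgeR adjusted p 0.34), where 3.25% of all genes were called lower.

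Of the polymerase and primase genes, Pola2 (chr19:5940542-5964202, minus strand), the regulatory subunit of polymerase alpha, departed from the rest. Its normalized counts were 69.8 and 214 in the saline libraries, 232 and 134 at Day 3, and 251, 174 and 264 at Day 8, with no split inside Day 8, and saline replicate 1 was the lowest library. The difference from saline was 0.66 ± 0.51 (edgeR adjusted p 0.96) and 0.60 ± 0.58 without Day 8 replicate 1. Pole2 (chr12:69201773-69228195, minus strand), an accessory subunit of the leading-strand polymerase, had 64.5 and 115 in the saline libraries, 83.0 and 85.7 at Day 3, and 151, 11.5 and 37.1 at Day 8. Replicate 2 of Day 8 was the lowest library for Pole2 and replicate 1 the highest. The difference was -0.46 ± 0.89 with all 3 libraries and -1.85 ± 0.63 without replicate 1. Prim1, which makes the RNA primer, and Pola1, the catalytic subunit of polymerase alpha, were also at least 2-fold lower without it (-1.22 ± 0.38 and -1.11 ± 0.30, edgeR adjusted p 0.45 and 0.42). Pold1 (-0.76 ± 0.35) and Pole (-0.90 ± 0.57) did not pass.

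Single-strand binding and the joining of lagging-strand fragments were represented by Rpa1, Rpa2, Fen1 and Lig1, all 4 lower at Day 8 than in saline without passing the test (-0.61 to -0.20). Rpa1 (chr11:75298166-75348324, minus strand), a subunit of the protein that coats single strands, had 488 and 437 in the saline libraries, 326 and 349 at Day 3, and 496, 252 and 232 at Day 8. Both Day 3 libraries were below both saline libraries, and Day 8 replicates 2 and 3 were below them all. The difference from saline at Day 8 was -0.49 ± 0.39 (edgeR adjusted p 0.96), or -0.91 ± 0.27 without replicate 1 (adjusted p 0.44). Lig1 (chr7:13277283-13311433, plus strand), the ligase that seals the fragments, had 1449 and 1713 in the saline libraries, 1117 and 946 at Day 3, and 1995, 530.2 and 393 at Day 8. It too was lower in both Day 3 libraries than in saline, and without Day 8 replicate 1 its Day 8 difference was -1.72 ± 0.30 (edgeR adjusted p 0.25, the lowest of the 42). Fen1, the flap endonuclease, had 67.2 and 568 in the saline libraries, 385 and 329.9 at Day 3, and 448, 174 and 218 at Day 8, but 87.6% of the words at its 3′ end are shared with the overlapping gene Gm10143, so its counts are uncertain.

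Nucleotide synthesis held the only member called with all libraries, 1 of 42, a share not above the 4.64% of all genes called at Day 8 against Day 3. Rrm1 (chr7:102441695-102469771, plus strand), the large subunit of ribonucleotide reductase, had 629.5 and 1594 in the saline libraries, 1294 and 1211 at Day 3, and 1062, 299.5 and 347 at Day 8. All 3 Day 8 libraries were below both Day 3 libraries. Rrm1 was the only member for which those groups did not overlap, whereas 16% of all genes were lower in this way. The saline libraries lay apart on both sides of Day 8 replicate 1. The difference was -1.38 ± 0.58 against Day 3 (past fold 2 with an unadjusted P under 0.05; limma adjusted p 0.69) and -0.92 ± 0.64 against saline (edgeR adjusted p 0.96). Without Day 8 replicate 1 these were -1.95 ± 0.42 and -1.75 ± 0.49, and both were called, as were 5.62% and 3.25% of all genes lower. Tk1 (chr11:117815526-117826092, minus strand), thymidine kinase, had 212 and 643 in the saline libraries, 538 and 423 at Day 3, and 566, 102 and 106 at Day 8. Day 8 replicate 1 was above both Day 3 libraries here, and the difference was -1.38 ± 0.77 against Day 3 and -0.73 ± 0.82 against saline. Without that library Tk1 was called lower in both, at -2.18 ± 0.50 against Day 3 (limma adjusted p 0.10) and -2.0 ± 0.56 against saline (edgeR adjusted p 0.43). Rrm2, the small subunit of the reductase, and Tyms, thymidylate synthase, differed from saline by -0.57 ± 0.85 and -0.36 ± 0.78, or -1.70 ± 0.71 and -1.46 ± 0.57 without it. All 4 genes of this group were more than 2-fold higher in saline replicate 2 than in replicate 1.

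Cyclin E1, encoded by Ccne1 (chr7:38097984-38107534, minus strand) and driving entry into S phase with its partner kinase, had 69.8 and 141 in the saline libraries, 88.3 and 51.9 at Day 3, and 130.0, 9.4 and 25.3 at Day 8. Here Day 8 replicate 1 was close to saline replicate 2 and the other Day 8 libraries were the lowest 2. The range was 3.65, the widest of any member on log2(normalized count + 1). The difference was -0.98 ± 0.94 (edgeR adjusted p 0.96), and -2.57 ± 0.63 without replicate 1. Ccne2 (-0.03 ± 0.47) and E2f1, the E2F factor that activates many genes of this kind (-0.18 ± 0.62), had differences closer to 0, and without replicate 1 they stood at -0.61 ± 0.31 and -1.03 ± 0.40.

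The chromatin group holds Chaf1a and Chaf1b, which place new histones behind the fork, Slbp, which binds histone mRNA, and Uhrf1, which helps to maintain DNA methylation after replication. Chaf1a (chr17:56040439-56072289, plus strand) had 150.0 and 185 in the saline libraries, 135 and 154 at Day 3, and 177, 81.7 and 28.3 at Day 8. Of the words at its 3′ end 69.7% are shared with other genes, chiefly the overlapping Ubxn6, so its level is uncertain. Day 8 replicates 2 and 3 were again the lowest 2 libraries, and the difference was -0.81 ± 0.66 (edgeR adjusted p 0.96), or -1.55 ± 0.57 without replicate 1 (adjusted p 0.51). Chaf1b (chr16:93883901-93906115, plus strand) had 63.1 and 97.7 in the saline libraries, 57.5 and 62.2 at Day 3, and 141, 15.6 and 11.9 at Day 8. Its range inside Day 8 was 3.46, with replicate 1 above every other library, and its difference of -0.56 ± 1.00 became -2.46 ± 0.54 without replicate 1. Slbp (-0.02 ± 0.55) and Uhrf1 (-0.97 ± 0.82) had no call. Without replicate 1 Uhrf1 was called, at -2.10 ± 0.67 (edgeR adjusted p 0.46), and Slbp, at -0.45 ± 0.55, was not.

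**Figure D2:**
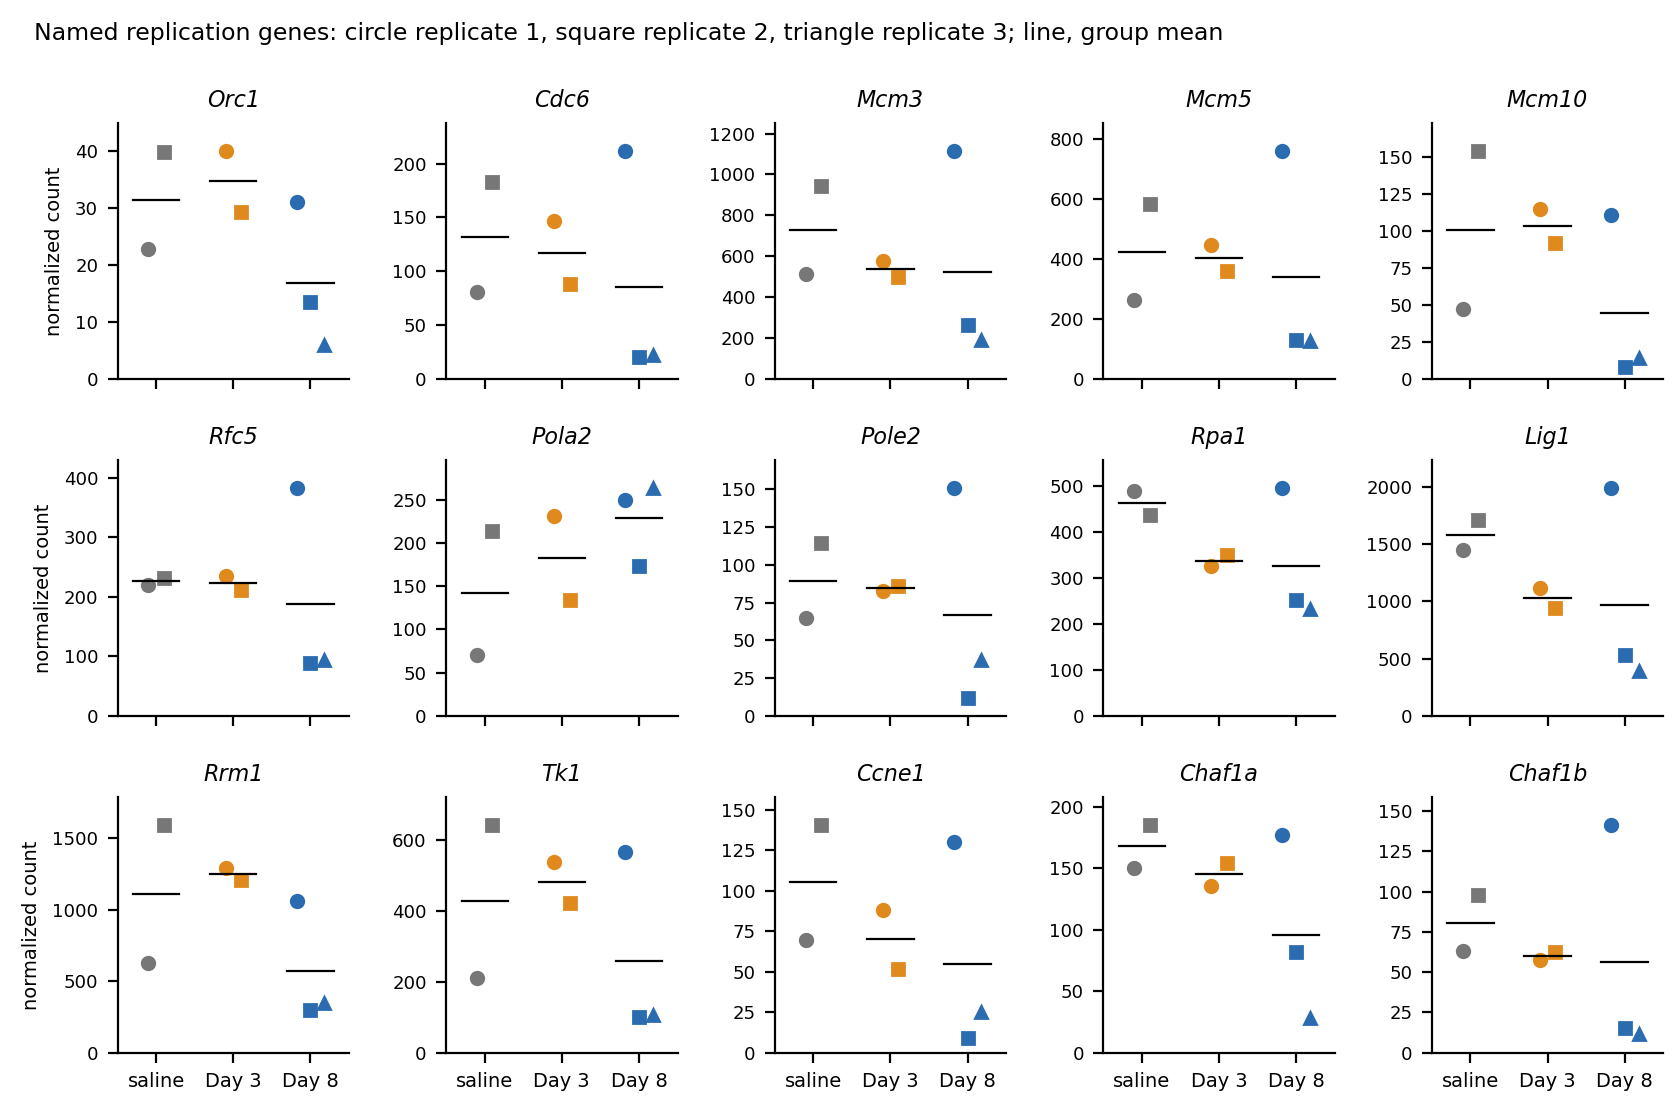
Normalized counts of the 15 named members in each library by group; each panel starts at 0, the line is the group mean, and circles, squares and triangles are replicates 1, 2 and 3. In every panel but that of Pola2 the Day 8 circle stands above the other Day 8 libraries, as for Rfc5 at 383 against 88.0 and 94.0.

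Words of the E2F motif lay near the start of 9 of the 35 members with an entry in the RefSeq promoter table (GRCm38.p6): Orc1, Cdc6, Mcm5, Mcm6, Mcm7, Gins3, Rfc3, Pola1 and Uhrf1. The search took 4 words, TTTCCCGC, TTTCGCGC, TTTGCCGC and TTTGGCGC, on both strands (reversed: GCGGGAAA, GCGCGAAA, GCGGCAAA and GCGCCAAA) in the 250 bases before the start, and hits may overlap. The start is the one in the promoter table, which can differ from the start of the whole gene in GENCODE. Of the 40 entries of members, 34 had a start that matched a GENCODE transcript of the gene. The share was 25.7%, against 2.16% of 27025 genes in that table and 3.58% of the 11071 tested ones. The stretches of these 9 genes are shown because they carry the motif shared by members of 6 roles, written 5′ to 3′ on the strand of the gene with the motif in capitals; the fixed rule for printing gave Orc1 alone, and the other 8 were added after the values were seen. The stretches of Cdc6, Mcm7, Gins3, Rfc3 and Uhrf1 lie inside the GENCODE coordinates of their genes, and that of Orc1 partly does. For Orc1, Mcm7, Gins3 and Rfc3 the motif lies in an exon annotated for some transcript, and no more than 30 bases are given.
Orc1: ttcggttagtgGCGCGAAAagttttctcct
Cdc6: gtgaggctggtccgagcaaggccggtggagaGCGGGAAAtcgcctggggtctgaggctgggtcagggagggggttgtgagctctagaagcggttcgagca
Mcm5: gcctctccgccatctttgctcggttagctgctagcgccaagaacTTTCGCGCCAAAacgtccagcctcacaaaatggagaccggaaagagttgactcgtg
Mcm6: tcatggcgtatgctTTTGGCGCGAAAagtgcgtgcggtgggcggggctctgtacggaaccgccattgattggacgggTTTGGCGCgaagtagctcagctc
Mcm7: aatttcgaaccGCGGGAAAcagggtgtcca
Gins3: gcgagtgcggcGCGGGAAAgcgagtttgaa
Rfc3: acgtcgcacgcTTTCGCGCtc
Pola1: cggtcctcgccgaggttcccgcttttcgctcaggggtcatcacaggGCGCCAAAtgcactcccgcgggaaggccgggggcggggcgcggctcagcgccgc
Uhrf1: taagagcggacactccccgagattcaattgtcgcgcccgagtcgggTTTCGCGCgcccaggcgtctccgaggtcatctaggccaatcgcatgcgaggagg
In the order Orc1, Cdc6, Mcm5, Gins3 and Uhrf1 these are chr4:108579416-108579445, chr11:98907982-98908081, chr8:75109312-75109411, chr8:95633507-95633536 and chr17:56304082-56304181 on the plus strand, and in the order Mcm6, Mcm7, Rfc3 and Pola1 chr1:128359730-128359829, chr5:138172030-138172059, chr5:151651209-151651229 and chrX:93632240-93632339 on the minus strand. Mcm6 held 3 hits, of which the first 2 overlap, and Mcm5 held an overlapping pair; Rfc3 had its hit 10 bases and Uhrf1 185 bases before the start. None of the members of nucleotide synthesis, G1/S control, or single-strand binding and joining in the table held one of the 4 words in this window. A match is a description of letters, and binding was not measured. Mcm4, Gins1, Gins2, Gins4, Rfc2, Pole and Ccne2 are not in the table. Members with the motif were on both sides of the calls without Day 8 replicate 1: Cdc6, Mcm5, Mcm7, Gins3, Pola1 and Uhrf1 were called lower than saline, and Orc1, Mcm6 and Rfc3 were not. In that setting 3.25% of all genes were called lower, and the edgeR adjusted p of the members called here ran from 0.33 to 0.48.

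Day 8 was compared with saline over all genes to ask how CXCL12 changed the uterus by that day. Of the 42 members 37 had a negative and 5 a positive difference, with a median of -0.30 and a range of -1.26 to 0.66; the median of all 15388 genes tested was -0.01. No member passed fold 2 with an unadjusted P under 0.05 (edgeR quasi-likelihood; 2.94% of all genes did), 0 had an unadjusted P under 0.05 (4.28% of all genes). Likewise 0 had a Benjamini-Hochberg adjusted p under 0.1 (0% of all genes), and the adjusted p ran from 0.96 to 1. DESeq2 and limma also gave 0 calls and 0 members with an unadjusted P under 0.05, with medians of -0.28 and -0.56 and 36 of 42 members lower in each. No member had groups that did not overlap, against 9.55% of all genes lower and 9.21% higher in every Day 8 library. The standard errors, 0.35 to 1.05, were wider than most of these differences.

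Leaving out Day 8 replicate 1 changed this comparison. Of the 42 members 22 were then at least 2-fold lower at Day 8 with an unadjusted P under 0.05 and none was higher, against 3.25% of all genes lower; the median difference was -1.15, and 26 members had an unadjusted P under 0.05. Still 0 members had an adjusted p under 0.1 (lowest 0.25; 0.0391% of all genes lower did). The 22 were spread over all roles: 2 of 4 licensing genes, 4 of 6 MCM genes, 3 of 6 helicase activators, 1 of 5 clamp and loader genes, 3 of 6 polymerase and primase genes, 1 of 4 binding and joining genes, 3 of 4 nucleotide synthesis genes, 2 of 3 G1/S regulators and 3 of 4 chromatin genes. Counting that library with Day 3, after the name of its table, also gave 22 calls, all lower (3.87% of all genes; 0 members and 0.143% of all genes with an adjusted p under 0.1), and a median of -1.16. Without saline replicate 2, 4 of the 42 members, Fen1, Mcm4, Orc6 and Pola2, were called higher at Day 8, near the 6.56% of all genes called higher in that setting (0% with an adjusted p under 0.1), and the median was 0.15. Leaving out Day 8 replicate 2 or 3 moved the median to 0.02 and 0.00, with 0 calls.

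**Figure D3:**
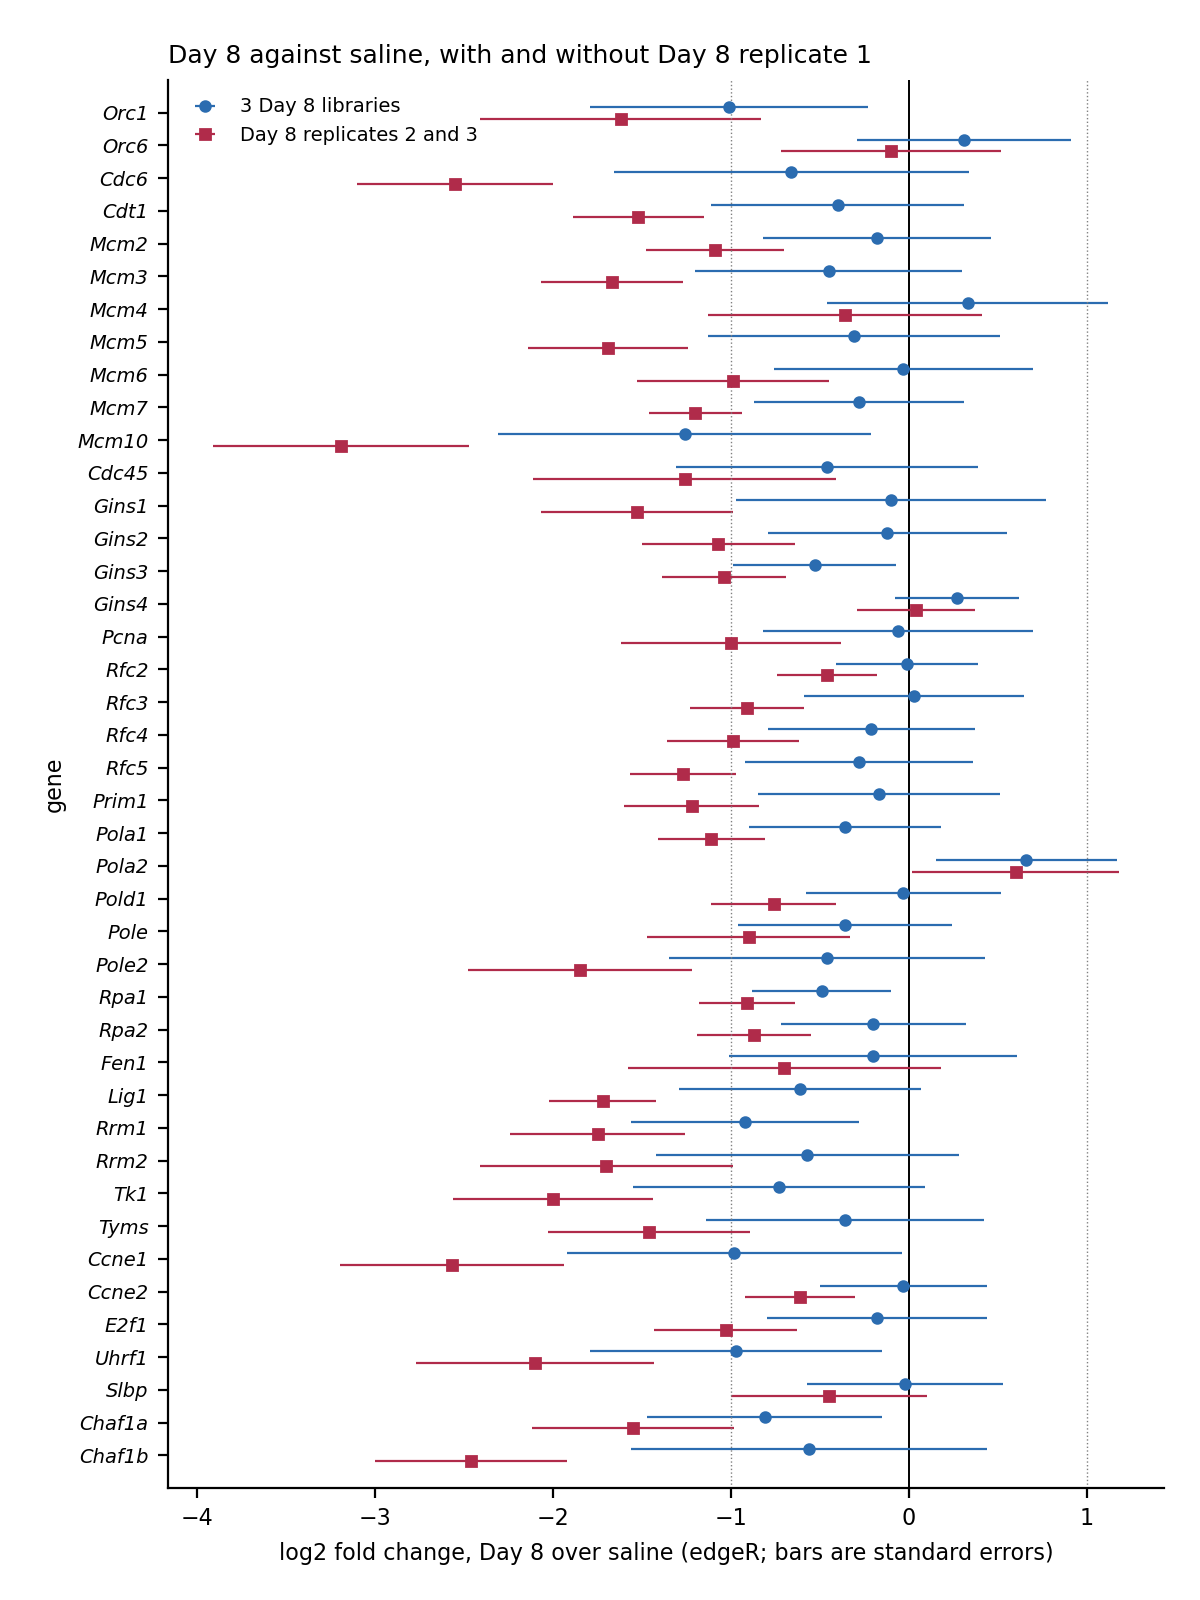
Log2 fold change of each member, Day 8 over saline (edgeR), with its standard error, from all 3 Day 8 libraries (blue circles) and from Day 8 replicates 2 and 3 (red squares); dotted lines mark a 2-fold change. The circles lie between -1.26 and 0.66, and the squares reach -3.19 in Mcm10.

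Day 3 was compared with the same saline libraries. The members divided evenly, 21 lower and 21 higher, with a median of 0.00, a range of -0.76 to 1.04 and standard errors of 0.34 to 1.11 (limma on log2(normalized count + 1), a scale that understates the change of low genes). None passed fold 2 with an unadjusted P under 0.05 (4.51% of all genes did), 0 had an unadjusted P under 0.05 (7.38%) and 0 an adjusted p under 0.1 (0%); edgeR on estimated counts gave 0 calls and 0 members with an unadjusted P under 0.05 too. Orc6 had the lowest P, with a difference of 1.04 ± 0.61 (limma adjusted p 0.62) and values of 106 and 403 in the saline libraries, 445 and 411 at Day 3, and 477, 243 and 231 at Day 8. Groups did not overlap for 2 members higher at Day 3, Orc6 and Rfc4, against 24% of all genes, and for 8 members lower, Cdt1, Mcm7, Gins3, Pold1, Rpa1, Rpa2, Lig1 and Chaf1b, against 22.5% of all genes. Without quantile normalization the median of all genes moved to -0.26 and that of the members to -0.24, with 30 of 42 members lower. Without saline replicate 2 the same 4 members were called higher at Day 3, 3 of them with an adjusted p under 0.1, whereas 10.3% of all genes were called higher and 8.63% passed that adjusted p, so the members' shares were not above those of all genes. The members' median was then 0.44, and without saline replicate 1 it was -0.46 with 0 calls.

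Between Day 3 and Day 8 the members' median difference was -0.52 (range -2.07 to 0.35, 37 lower and 5 higher; median of all genes 0.00), against -0.56 for Day 8 over saline by the same tool, limma. Rrm1 was the single member called, 1 of 42 against 4.64% of all genes, and the single member with an unadjusted P under 0.05, against 7.18%. No member had an adjusted p under 0.1 (limma; 0% of all genes), and edgeR on estimated counts gave 0 calls and 0 members with an unadjusted P under 0.05. Rrm1 was also the only member lower in every Day 8 library than in both Day 3 libraries (16% of all genes were; none of the members and 15.7% of all genes were higher). The call was lost when either Day 3 library or Day 8 replicate 2 or 3 was left out, and with no filter on low values. Without Day 8 replicate 1, 20 members were called, all lower (5.62% of all genes), and 9 had an adjusted p under 0.1 (1.75% of all genes lower): Rfc5, Mcm10, Chaf1b, Lig1, Prim1, Cdc6, Rrm1, Rfc4 and Pola1, with the lowest, 0.07, in Rfc5. With Day 8 replicate 1 counted as Day 3, 28 were called, all lower (6.09%), 22 of them with an adjusted p under 0.1 (4.99%), and the median was -1.44. The limma comparisons share the fit, and Day 8 and Day 3 share the saline libraries as their reference, so the 3 comparisons are not independent of each other.

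Set against the Day 3 libraries, mitosis genes did not follow the replication genes in Day 8 replicate 1. Of the 42 members 39 were higher in that library than in both Day 3 libraries, against 41.2% of all genes, and 1, Rrm1, was lower than both. Of 20 genes of mitosis and G2/M, none was higher and all 20 were lower than both Day 3 libraries, against 38.4% of all genes. The median of the list, as the difference from each gene's mean over the libraries, was -0.50 and 1.25 in saline, 1.06 and 0.98 at Day 3, and -0.19, -1.13 and -1.51 at Day 8, where the members stood at -0.16 and 0.70, 0.32 and 0.16, and 0.99, -0.88 and -0.89. Top2a, the topoisomerase that untangles chromosomes, had 2409.8 and 5465 in the saline libraries, 4421 and 3818 at Day 3, and 2171, 1002 and 1048 at Day 8. Mki67, the common marker of dividing cells, had 526 and 1374 in the saline libraries, 813 and 704 at Day 3, and 429, 236 and 214 at Day 8. In both genes all 3 Day 8 libraries were below every other library, replicate 1 included. Inside Day 8 many mitosis genes shared the split of the members. For 11 of the 20, replicate 1 was more than 2-fold above the mean of replicates 2 and 3 (median over the 20, 1.1 on the log2 scale). Replicates 2 and 3 were the 2 lowest libraries for 16 of the 20.

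By the tests used for the members, edgeR against saline and limma against Day 3, none of the 20 mitosis genes had an adjusted p under 0.1. From saline to Day 8, 10 fell at least 2-fold with an unadjusted P under 0.05 (median of the list -1.37), against 2.94% of all genes called in either direction. From Day 3 to Day 8, 18 did (median -1.96), against 4.64%. Without Day 8 replicate 1 the counts were 14 and 18, against 3.25% and 5.62% of all genes lower. In that setting 0 and 8 of the 20 had an adjusted p under 0.1, against 0.0391% and 1.75% of all genes lower. Against saline at Day 3, 19 of 20 were higher (median 0.78) and 0 were called. All 20 were more than 2-fold higher in saline replicate 2 than in saline replicate 1. Cdc20, an activator of the anaphase-promoting complex, had the lowest P in both, with differences of -1.63 ± 0.46 (edgeR adjusted p 0.96) and -2.06 ± 0.43 (limma adjusted p 0.65). Mki67 and Top2a differed from saline by -1.67 ± 0.49 and -1.35 ± 0.51. Of the 38 other replication genes, 33 of the 37 tested were lower at Day 8 than in saline (median -0.32, 0 called, lowest P in Dbf4, the activator of the Cdc7 kinase, edgeR adjusted p 0.96), and 26 of 38 were higher in Day 8 replicate 1 than in both Day 3 libraries. Dbf4 itself had 148 and 469 in the saline libraries, 473 and 526 at Day 3, and 230.1, 94.1 and 84.2 at Day 8, with Day 8 replicate 1 below both Day 3 libraries as in the mitosis genes, and was the 1 gene of the 37 called lower at Day 8 than at Day 3. Without Day 8 replicate 1, 9 of the 37 were called lower than saline and 13 lower than Day 3. Of the 37, 0 and 3 then had an adjusted p under 0.1.

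Cyclins, their kinases and the brakes of the cycle gave no call at Day 8 against saline. Among 10 cyclins, CDKs and activating E2Fs, 9 were lower at Day 8 than in saline with a median of -0.30 and 0 called (-0.71 and 1 lower without Day 8 replicate 1). The lowest P was that of Ccnd2, a cyclin of G1, at -0.68 ± 0.33 (edgeR adjusted p 0.96). Ccna2, the cyclin of S and G2 phase, had 546 and 1512 in the saline libraries, 1482 and 1537 at Day 3, and 1105, 611 and 596 at Day 8, with Day 8 replicate 1 below both Day 3 libraries. Ccnd1, a cyclin of G1, had 1626 and 2932 in the saline libraries, 2494 and 2595 at Day 3, and 2932, 1040.1 and 1209.9 at Day 8, with Day 8 replicate 1 level with saline replicate 2. Ccnd2 was called lower at Day 3 than in saline and E2f3 lower at Day 8 than at Day 3. Among 13 brakes of the cycle 6 were lower and 7 higher, with a median of 0.02 and 0 called (-0.03 and 0 without Day 8 replicate 1). Cdkn1a had 181 and 156 in the saline libraries, 140.0 and 169 at Day 3, and 81.7, 177 and 133 at Day 8, and Cdkn1b, a CDK inhibitor of resting cells, had 766 and 851 in the saline libraries, 815 and 947 at Day 3, and 654, 1823 and 1372 at Day 8, highest in the Day 8 libraries in which the members were lowest (difference from saline 0.69 ± 0.44, edgeR adjusted p 0.96).

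**Figure D4:**
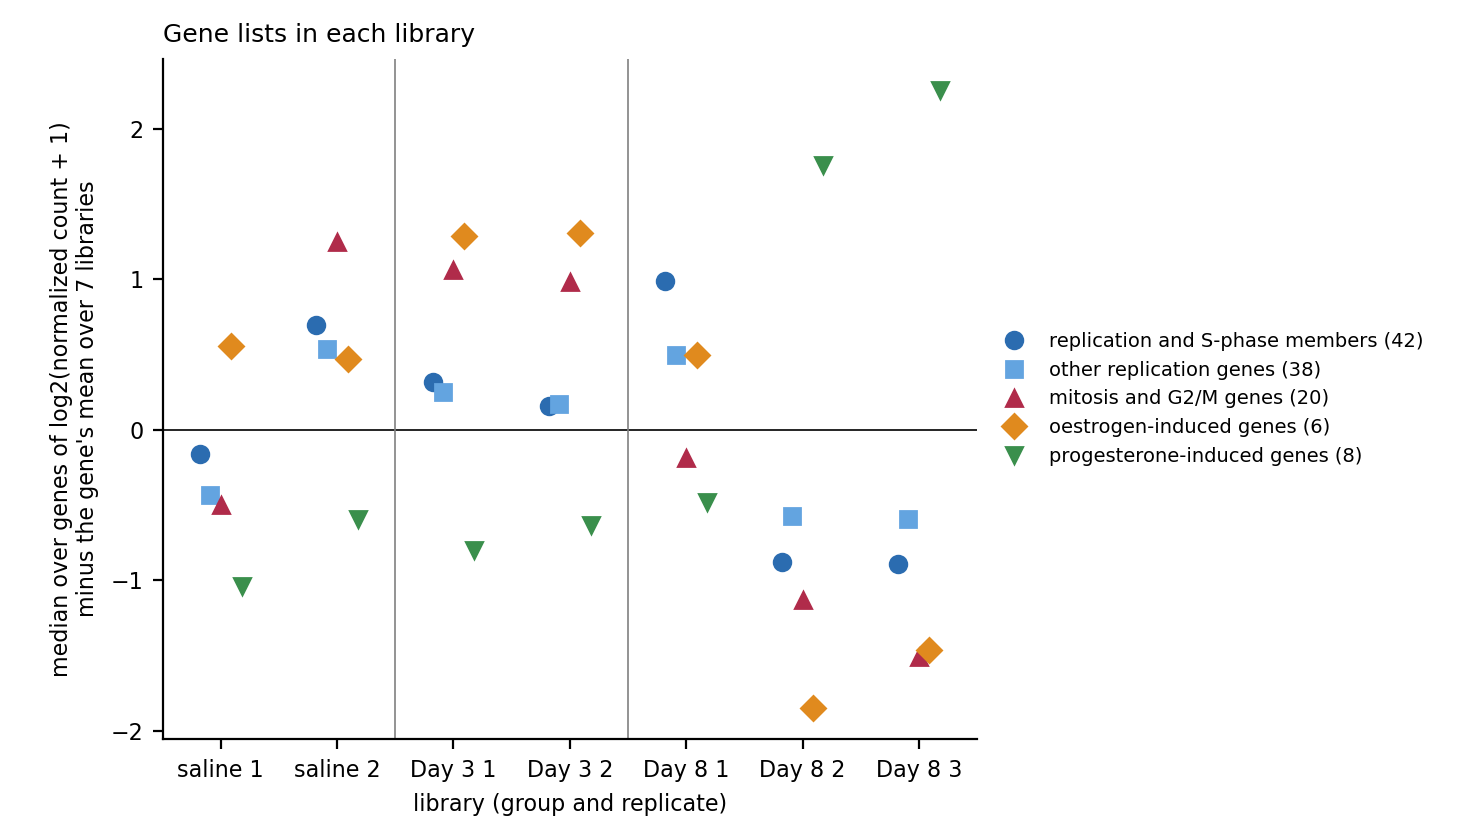
Median over the genes of 5 lists, as log2(normalized count + 1) minus each gene's mean over the 7 libraries, in each library. In Day 8 replicate 1 the members stand at 0.99 and the mitosis genes at -0.19, whereas in Day 8 replicates 2 and 3 both are below -0.85 and the progesterone-induced genes are at 1.76 and 2.26.

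Markers of uterus and of its cell types were present in all libraries, and some moved with the members. The summed normalized counts of 6 uterine markers (Esr1, Pgr, Hoxa10, Hoxa11, Emx2 and Msx1) were 10388 to 19731 in saline, 9202 to 10235 at Day 3 and 10136 to 13793 at Day 8. Those of 6 epithelial markers were 6553 and 8458 in saline, 8394 and 8261 at Day 3, and 9583, 4313 and 7562 at Day 8. The library with the highest members thus also had the highest epithelial sum, but it was the highest library for only 2 of the 6 markers. Cldn4 went the other way, with 75.3 in Day 8 replicate 1 and 158 and 358 in replicates 2 and 3. Such sums follow the most abundant genes of a list. For 6 stromal markers the sum was 64928 in Day 8 replicate 1 and 110193 to 130927 in the other 6 libraries. In Day 8 replicate 1, 5 of these 6 were below both Day 3 libraries and 1, Pdgfra, was above both (536 against 399.8 and 459.5). For 6 smooth muscle markers the sum was 17103 in Day 8 replicate 1 and 17398 in saline replicate 2, the pair of libraries in which most members were highest. It was 28061 to 38922 elsewhere, highest in Day 8 replicates 2 and 3. The 5 endothelial markers summed to 1973 and 1375 in saline, 1541 and 1696 at Day 3, and 1330, 2461 and 2515 at Day 8, the reverse of the order of the members' summed normalized counts in all 7 libraries. Leukocyte markers (6) summed to 3414 and 3616 in saline, 1744 and 1396 at Day 3, and 1127, 2844 and 3205 at Day 8. Between Day 8 and saline 2 of 6 smooth muscle markers were called higher (5 without Day 8 replicate 1) and 1 of 6 leukocyte markers, Cd68, lower. No listed marker was at 0 in all 7 libraries. The part of these cell types in the members' levels was not tested.

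Tissue from outside the uterine wall was also seen. The 8 granulosa and luteal markers, genes of the ovary, summed to 1879 and 10593 in saline, 94 and 135 at Day 3, and 957, 32772 and 125 at Day 8; the members were low in both Day 8 replicate 2 and Day 8 replicate 3, whose ovarian sums were the highest and among the lowest. The 5 adipocyte markers summed to 3739 and 19957 in saline, 14725 and 1909 at Day 3, and 1369, 1928 and 1348 at Day 8, with 5 of 5 called lower than saline (4 without Day 8 replicate 1). Sums of 6 erythroid precursor markers were 300 and 1212 in saline, 1751 and 1411 at Day 3, and 756, 887 and 533 at Day 8. Those of 3 oviduct markers were 6971 and 6490 in saline, 6114 and 7382 at Day 3, and 3178, 6600 and 2678 at Day 8, and 6 markers of T and B lymphocytes summed to 70 to 108 in every library. The part of such tissue was not tested.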

How the data were processed

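QuantSeq 3′ mRNA reads of 7 uterine libraries were the basis of all values. According to the study's methods, alignment was done by the authors in Bowtie2, coverage from Bedtools gave counts of uniquely and multiply aligned reads, and these were quantile-normalized in edgeR. The submitters' processing notes name Bowtie2, edgeR, mm10 and hg19; versions, and whether counting used strand, are not given in the sources used here. The authors deposited whole-number counts per gene for 6 libraries, and for Day 3 replicate 1 a table of log2 values of normalized counts plus 1. Of 3819 low values in that table, 97% were within 0.1 of a whole number after dividing by a factor of 1.0515, where chance gives 20%; its values were put on a linear scale and entered the quantile normalization with the scaled counts of the others. Unused sample columns numbered 0.

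Counts were tested with edgeR 4.0.16 (TMM, quasi-likelihood, genes kept by filterByExpr, 6 libraries, 3 residual degrees of freedom). Comparisons with Day 3 used limma 3.58.1 with a trend on log2(normalized count + 1) of the 7 libraries, after quantile normalization, for genes with a normalized count of 10 in at least 2 libraries. P-values were adjusted by Benjamini-Hochberg over all genes. Standard errors given with limma come from its fit. Those given with edgeR were derived, as the size of the log2 fold change over the square root of its quasi-likelihood F statistic, so they are approximate. Called means fold 2 with an unadjusted P under 0.05; an adjusted p under 0.1 is given separately. Analyses ran in R 4.3.3; DESeq2 1.42.0 and other filters, normalizations and sample sets were alternatives. Scripts were tested on simulated data. A 3′ count depends on the gene, so levels were not compared between genes.

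The members and lists were chosen with earlier results of these data known. Values in every library are given for members called in any comparison and, for each role, for the member with the lowest P and the member with the widest range of log2 CPM at Day 8, with CPM computed from the deposited counts; a few other members (Orc6, Mcm4, Pcna, Fen1 and Gins4) were added after their values were seen. Shared 3′ sequence was the share of 50-base words in the last 500 bases of GENCODE transcripts found in exons of another gene on either strand. Acod1 and Clca3, of the hormone lists, were not found under those symbols.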

Additional observations from a re-analysis of the deposited data

How the results depend on the processing

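The changes below turned on single libraries more than on normalization, filter or tool. Against saline at Day 8 the count of calls was 0 in every setting except 22 without Day 8 replicate 1, 22 with it counted as Day 3, and 4 without saline replicate 2; leaving out single libraries gave 0 to 22 calls and medians of -1.15 to 0.15, and the median was -1.16 with Day 8 replicate 1 counted as Day 3. At Day 3 against saline, single omissions gave 0 to 4 calls, and 1 call, Orc6, arose with Day 8 replicate 1 counted as Day 3. At Day 8 against Day 3, single omissions gave 0 to 20 calls, counting Day 8 replicate 1 as Day 3 gave 28 and a median of -1.44, and the 1 call was lost, to 0, with no filter, with edgeR on estimated counts and with the replicate block. Where the saline group is left with 1 library, that library is assumed to vary like the other groups.

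Deviations of same-numbered libraries correlated at -0.17 and -0.08 between saline and Day 8 and at -0.05 between saline and Day 3. With 2 saline libraries the deviations mirror each other, so the other saline library gives the same value with the sign turned (0.17 for saline replicate 2 with Day 8 replicate 1). These correlations therefore cannot tell whether libraries came from horns of the same animal. With the replicate block the members' medians were -0.19, 0.00 and -0.27 for Day 8 against saline, Day 3 against saline and Day 8 against Day 3, with 0 calls in each; over all genes calls fell from 453 to 157, from 667 to 572 and from 686 to 425. With the saline numbers exchanged, an alternative chosen after seeing the data, calls among members were 0 at Day 8 and 1 at Day 3, and over all genes 336 and 873. Over all genes, calls for Day 8 against saline were 1027 without Day 8 replicate 1 and 1527 without saline replicate 2, and DESeq2 gave 49 genes with an adjusted p under 0.1 where edgeR gave 0. The cause of these changes was not tested. The lowest count of any member was 5, of Orc1 in Day 8 replicate 3. The values of Orc1, Mcm10, Chaf1b, Ccne1, Pole2 and Cdc6 in Day 8 replicates 2 and 3 rest on few reads. Counts there were 14 and 25 for Ccne1, 17 and 37 for Pole2, and 29 and 22 for Cdc6. Cdc45 had 16 in Day 8 replicate 3. The wide ranges and differences of these members share this limit.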

Other observations

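As lists, genes known to respond to ovarian hormones in the uterus also divided the Day 8 libraries, though not every gene did. The 6 oestrogen-induced genes found had list medians of 0.56 and 0.47 in saline, 1.29 and 1.31 at Day 3, and 0.50, -1.85 and -1.46 at Day 8, as the difference of log2(normalized count + 1) from each gene's mean. Sprr2f, a gene of the uterine epithelium that was chosen after its values were seen, had normalized counts of 3019 and 2250.3 in the saline libraries, 5579 and 5012 at Day 3, and 1099.5, 28.3 and 86.0 at Day 8. C3, with 2944, 2232 and 3515 at Day 8, was not divided in this way. Called lower at Day 8 than at Day 3 were 4 of the 6 (list median -2.07), against 4.64% of all genes called in either direction. Without Day 8 replicate 1 it was also 4 of the 6, against 5.62% of all genes lower. Ltf, lactoferrin, had 1761 and 277 in the saline libraries, 357 and 279 at Day 3, and 310.2, 254 and 157 at Day 8. It was the 1 gene of the list called lower than saline at Day 8 (-1.93 ± 0.65, edgeR adjusted p 0.96). Without Day 8 replicate 1, 4 of the 6 were called lower than saline (3.25% of all genes). Of these, 2 had an adjusted p under 0.1 (0.0391% of all genes lower), and the list median was -1.87.

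The 8 progesterone-induced genes found were at -1.04 and -0.59 in saline, -0.80 and -0.63 at Day 3, and -0.48, 1.76 and 2.26 at Day 8. Cyp26a1, a retinoic acid hydroxylase also chosen after its values were seen, had 19.3 and 70.8 in the saline libraries, 41.5 and 74.8 at Day 3, and 62.0, 685 and 1655 at Day 8, and Il13ra2 had 8.2 and 18.2 in the saline libraries, 68.1 and 38.1 at Day 3, and 50.9, 196 and 252 at Day 8 with a difference from saline of 3.49 ± 0.81 (edgeR adjusted p 0.96). All 8 were higher at Day 8 than in saline, 3 of them called (2.94% of all genes were called in either direction). Without Day 8 replicate 1, 6 were called higher, against 528 of all 15359 genes tested. Day 8 replicate 1 was within the range of the saline and Day 3 libraries for Cyp26a1 and Il13ra2. Gata2, with 869, 663 and 1023 at Day 8, did not follow the division of the list. The Day 8 libraries in which the replication members were lowest were those in which this list was highest. No hormone level or cycle stage was given for any library, and the relation was not tested.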
